A study of Rattus norvegicus with 26 samples.

Results

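Genes that mark or direct mesendoderm, the common precursor of mesoderm and endoderm, were followed while rat progenitor cells were cultured towards smooth muscle. They were *Eomes*, *Lhx1*, *Mixl1*, *Gsc*, *T*, *Cer1* and the 3 genes *Cited1*, *Cited2* and *Cited4*, 9 in all. A gene was represented by the array probe that carried its name, and by the brightest such probe, over all arrays, where there were several. Of these 9 genes 7 were measured, which is 7 of the 35287 gene names on the array. *Cer1*, which encodes a secreted inhibitor of NODAL, BMP and WNT, had no probe under that name and was left out. *T*, the brachyury gene, had 1 probe that was not well above background on any of the 26 arrays and was left out as well.

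RNA was hybridised to single-colour rat expression arrays, and every level below is a log2 intensity after quantile normalization. The cells were rat multipotent adult progenitor cells (rMAPC), clones grown from the bone marrow of female Fischer rats that express *Oct4* (*Pou5f1*). Clone Cl19 came from 3-week-old animals and clone 3c3 from E18, so each line is a single clone. To differentiate, both were plated in serum-free basal medium with TGF-β and PDGF-bb, and RNA was taken in 3 replicates before the factors (d0) and on d2, d4 and d6. The other 2 arrays held commercial rat aortic RNA, called primary smooth muscle (primary SMC) here because the study describes it as RNA of primary smooth muscle cells. No cultures without the factors were taken at the later days, so time in culture, plating, the serum-free medium and the factors cannot be told apart. The study's methods call the replicates of each day biological without saying how their cultures were separated, and say nothing of the kind for the 2 primary SMC arrays. P-values measure the spread between these arrays.

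In the embryo NODAL and its relatives bind activin receptors, which activate SMAD2 and SMAD3. These proteins enter the nucleus with SMAD4 and, together with FOXH1, switch on genes of the primitive streak. EOMES and brachyury are T-box transcription factors, and EOMES is needed for definitive endoderm and for early mesoderm. LHX1 is a LIM-homeodomain factor and GSC a homeodomain factor of the anterior streak and its mesendoderm, and MIXL1 is a paired-type homeodomain factor of the streak. CITED proteins do not bind DNA themselves but join other factors to the coactivators CREBBP and EP300. TGF-β signals through the same SMAD2 and SMAD3 as NODAL.

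Each slide carried the 4 days of 1 replicate of 1 line, with d0, d2, d4 and d6 in the same order, so day and position on the slide cannot be told apart. Cl19, 3c3 and primary SMC were each scanned on a different day, so a level that differs between lines or from primary SMC cannot be told apart from the scan. Of the gene features, 52.7 to 61.4% were well above background in Cl19, 43.2 to 57.1% in 3c3 and 43.6 to 44.5% in primary SMC. The array labelled Cl19 d2 replicate 1 lay closer to the 3c3 arrays of d2, at a root mean square difference of 0.382 to 0.538, than to the other Cl19 arrays of d2, at 0.876 and 0.917. The changes of single genes from d0 to d2 in Cl19 are therefore given with and without it, and shares of all probes only with it. The fit has a single estimate of spread over all arrays, so this array also enters the SE of comparisons that do not use it. The 3c3 changes are not given with this array alone left out. The 7 smooth muscle markers with a probe had a summed signal of 1840 to 2230 on d0 and 61100 to 73100 on d6 in Cl19, of 1450 to 1680 and 29000 to 46000 in 3c3, and of 94300 to 96600 in primary SMC. On d6 most of the sum in each line was that of *Tagln*. Its mean log2 went from 9.31 to 15.85 in Cl19 and from 8.83 to 14.78 in 3c3. The means of *Cnn1*, *Smtn*, *Des* and *Lmod1* also rose in both lines. *Synpo2* went from 3.35 to 3.01 in Cl19 and rose in 3c3. *Myocd* went from 1.88 to 1.92 in Cl19 and from 2.47 to 1.27 in 3c3, against 7.04 in primary SMC. It was well above background on 1 of 3 Cl19 arrays of d6 and on no 3c3 array of d6. The 10 rMAPC markers summed to 92800 to 98100 on d0 and 28300 to 39000 on d6 in Cl19. In 3c3 they summed to 88700 to 92600 and 61800 to 77600. In primary SMC they summed to 4160 to 4180, and *Pou5f1*, *Gata4*, *Sox7* and *Dab2* were not well above background. *Lamb1* was the brightest of them on d0, at 15.56 in Cl19 and 15.26 in 3c3. *Foxa2* went up by d6, from 13.27 to 13.93 in Cl19 and from 13.39 to 13.88 in 3c3. So did *Hnf4a*, from 4.30 to 4.41 and from 4.38 to 4.48, and *Dab2* in 3c3, from 11.61 to 11.96. The remaining rMAPC means went down. Among the other cell types looked for, the 4 cardiac markers summed to 1110 to 1210 on d0 and 4210 to 13700 on d6 in Cl19 and to 456 to 655 and 898 to 1500 in 3c3. The higher sum in Cl19 was that of *Tnnt2*, whose mean log2 went from 9.96 to 12.98. There *Myh6* went from 6.52 to 5.74, *Tnni3* from 5.70 to 5.20 and *Actn2* from 1.66 to 1.86, so the cardiac markers did not rise as a set. The 5 endothelial markers stayed at or below 377, the 3 blood markers at or below 163 and the 2 adipocyte markers at or below 11.9 in every group. The part of these shifts in the results below was not tested. In these bulk samples a change in the share of cells that express a gene and a change in RNA per cell cannot be told apart.

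All 7 measured genes changed over the 4 days in Cl19 and 6 of them in 3c3, where *Gsc* did not pass (adjusted p = 0.098 from limma's F-test). With the slide, which carries 1 replicate, as a random block, or with the 3c3 arrays alone in the fit, *Gsc* passed as well. Over all 24442 tested probes, 54.3% changed over time in Cl19 and 50% in 3c3. By d2, *Eomes*, *Lhx1*, *Cited1*, *Cited4*, *Mixl1* and *Gsc* had risen in Cl19, 6 of 7 where 11.2% of tested probes rose, and *Eomes*, *Lhx1*, *Cited1*, *Cited2* and *Cited4* had risen in 3c3, 5 of 7 where 9.8% rose. On d6 against d0 the same 6 genes were higher in Cl19, where 22% of tested probes were higher, and *Eomes*, *Lhx1*, *Cited2*, *Cited4* and *Mixl1* were higher in 3c3, where 19.7% were. None of the 7 fell on d2 or d6 against d0 in limma, at an adjusted or at an unadjusted p under 0.05. With the methods' t-test in place of limma, *Cited1* and *Cited4* passed on d2 in Cl19, 2 of 7, and *Eomes*, *Lhx1*, *Mixl1* and *Gsc* did not. *Mixl1* and *Cited4* were not well above background on all d0 arrays of either line and entered the test through later days or primary SMC, so these counts describe the genes and support nothing more.

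**Figure D1:**
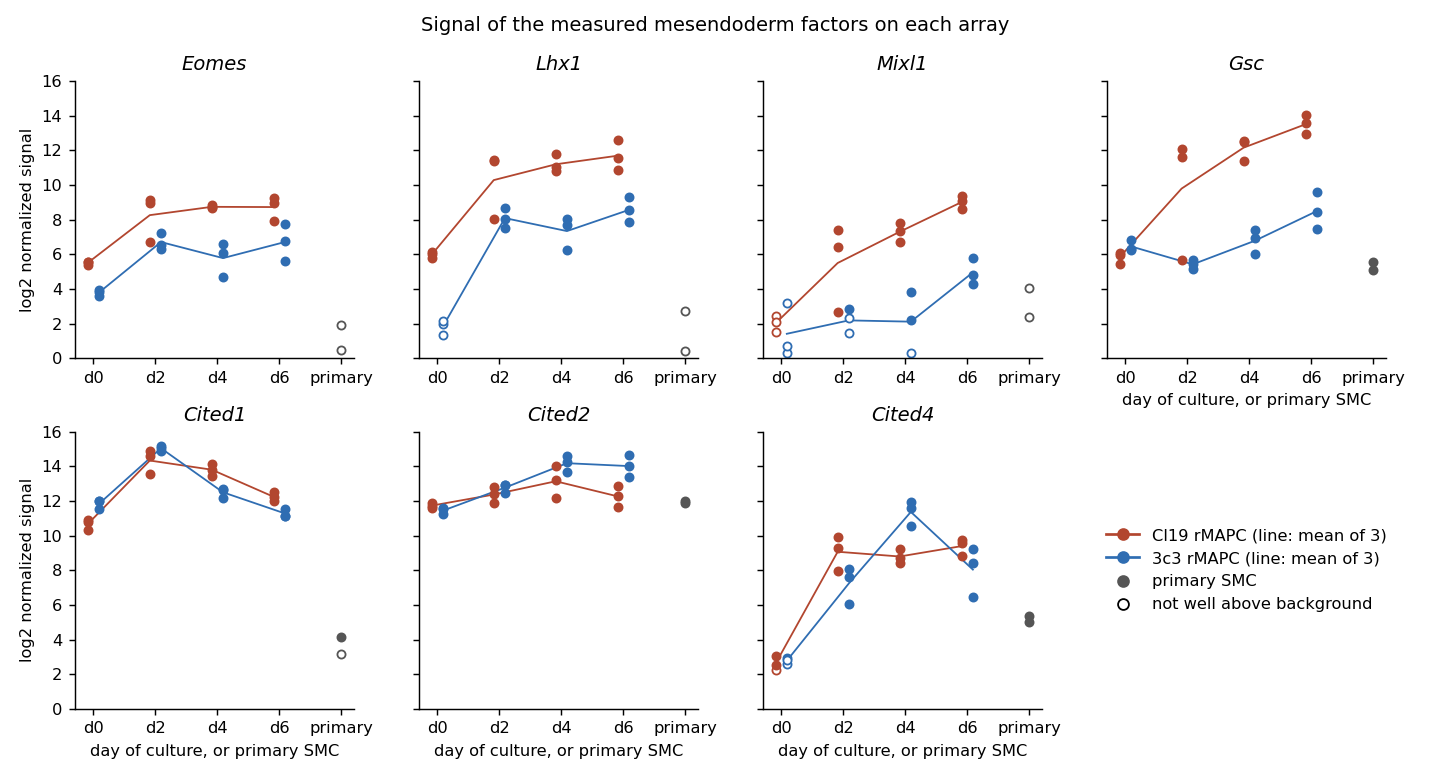
Log2 normalized signal (vertical axis) of the 7 measured genes on each of the 26 arrays, by day of culture in Cl19 (red) and 3c3 (blue), with lines through the means of 3 arrays, and in primary SMC (grey). Open symbols are arrays on which the probe was not well above background. *Eomes* and *Lhx1* rose by d2 in both lines, *Gsc* and *Mixl1* reached higher levels in Cl19 than in 3c3, and *Cited1* was highest on d2 in 3c3 and on d2 and d4 in Cl19.

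The direction of change of all probes together depended on the scaling. The median change of tested probes on d6 was -0.199 in Cl19 and -0.207 in 3c3 after quantile normalization, and 0.097 and 0.088 in the authors' unscaled table. Of all calls on d6, 42.1% were rises in Cl19 and 40.7% in 3c3, against 55.7% and 56.4% in that table. On d2 the shares of rises were 49.3% and 51.4%, against 64.9% and 78.1%. Relative to the median of all tested probes, the d6 changes of the 7 genes ran from 0.73 to 7.88 in Cl19 and from -0.35 to 6.93 in 3c3, and from 0.41 to 7.76 and -0.59 to 7.07 in the authors' table. In both scalings *Cited1* in 3c3 was the gene below the median. The size of the changes depended on the background correction, since normexp with its offset of 50 compresses dim signals. Under it the d2 change of *Cited4* was 2.97 in Cl19 and 1.56 in 3c3, that of *Lhx1* 3.34 and 2.27 and that of *Eomes* 1.79 and 1.15, each still past the threshold.

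*Eomes* and *Lhx1* rose early and together. Their upstream sequences are shown because the genes moved together on these arrays, each as the 250 bases before the start of transcription, read from RefSeq's table for the genome build GRCr8 and written 5′ to 3′ on the gene's strand.
Eomes (GRCr8 chr8:127058965-127059214, plus strand): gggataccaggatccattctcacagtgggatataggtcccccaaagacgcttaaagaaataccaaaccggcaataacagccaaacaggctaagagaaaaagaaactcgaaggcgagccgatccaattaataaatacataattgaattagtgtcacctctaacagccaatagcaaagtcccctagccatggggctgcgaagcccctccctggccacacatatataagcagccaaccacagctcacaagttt
Lhx1 (GRCr8 chr10:69901077-69901326, minus strand): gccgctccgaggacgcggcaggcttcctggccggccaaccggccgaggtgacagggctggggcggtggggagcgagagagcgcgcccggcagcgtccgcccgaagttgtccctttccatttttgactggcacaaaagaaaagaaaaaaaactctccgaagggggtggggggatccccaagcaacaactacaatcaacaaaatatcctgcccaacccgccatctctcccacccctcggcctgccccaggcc
The 7 motifs searched on both strands of these 250 bases were the FOXH1 site (AATACACA or AATCCACA), the SMAD box (CAGAC), a doubled SMAD box (GTCTAGAC), a T-box half-site (AGGTGT), a LIM-homeodomain site (TAATTA), a bicoid-type homeodomain site (TAATCC) and the TATA box (TATAAA), and no match to a motif overlapped a match to another in the sequences printed here. Capitals mark matches, and the sequences of *Eomes* and *Lhx1* hold none. Of the 33469 promoters in the table, 1.64% hold the FOXH1 site, 42.9% the SMAD box, 0.173% the doubled SMAD box, 11.6% the T-box half-site, 4.86% the LIM-homeodomain site, 6.34% the bicoid-type site and 12.9% the TATA box. A match is a run of letters and does not show binding, and the absence of one says nothing of the factor.

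The *Eomes* probe, which the array annotation places on chromosome 8 of the rat build rn4 between 123380030 and 123380646, read 5.58, 5.55 and 5.38 in Cl19 on d0, 6.68, 9.12 and 8.97 on d2, 8.66, 8.85 and 8.70 on d4 and 8.98, 7.94 and 9.25 on d6. In 3c3 it read 3.60, 3.93 and 3.83 on d0, 7.25, 6.33 and 6.53 on d2, 6.58, 4.70 and 6.05 on d4 and 7.72, 5.61 and 6.79 on d6. In each line every array from d2 on lay above all arrays of d0, and d2, d4 and d6 overlapped. The change on d2 was 2.75 (SE 0.61, adjusted p = 0.0025) in Cl19 and 2.92 (SE 0.61, adjusted p = 0.0018) in 3c3. On d6 it was 3.22 (adjusted p = 1.7e-04) and 2.92 (adjusted p = 5.5e-04). Within slides the d6 difference was 2.39 to 3.87 in Cl19 and 1.69 to 4.12 in 3c3. Without the array labelled Cl19 d2 replicate 1, the rise of *Eomes* on d2 in Cl19 was 3.54 (adjusted p = 1.1e-04). By mean, *Eomes* ran from Cl19 d4 and d6 through Cl19 d2, 3c3 d6, d2 and d4 to Cl19 d0, 3c3 d0 and primary SMC, and neighbours in that order overlapped except Cl19 d0 with 3c3 d0 and 3c3 d0 with primary SMC.

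The *Lhx1* probe, placed on chromosome 10 of rn4 between 72802902 and 72802961, read 6.11, 6.02 and 5.80 in Cl19 on d0, 8.01, 11.42 and 11.41 on d2, 10.78, 11.76 and 11.04 on d4 and 11.58, 10.87 and 12.62 on d6. In 3c3 its d0 arrays, all 3 not well above background, read 2.00, 2.14 and 1.34, and read 8.67, 7.53 and 8.06 on d2, 8.05, 6.27 and 7.69 on d4 and 9.29, 7.85 and 8.54 on d6. The gene was thus measurable before differentiation in Cl19 and not in 3c3. The change on d2 was 4.30 in Cl19 (SE 0.76, adjusted p = 3.2e-04), or 5.44 (adjusted p = 3.3e-06) without the array labelled Cl19 d2 replicate 1. In 3c3 the d2 level was at least 42.6-fold above d0 and the d6 level at least 59.2-fold, set against the lowest signal well above background on each d0 array (adjusted p = 6.6e-06 and 7.0e-07). In Cl19 the d6 change was 5.71 (SE 0.76, adjusted p = 3.1e-06). Within slides *Lhx1* on d6 stood above d0 by 4.85 to 6.82 in Cl19, and in 3c3 it was higher on 3 of 3 slides. No step from d2 to d4 or from d4 to d6 passed for *Eomes* or *Lhx1* in either line. In the order of means, from Cl19 d6, d4 and d2 through 3c3 d6, d2 and d4 to Cl19 d0, 3c3 d0 and primary SMC, *Lhx1* in 3c3 d4 did not overlap Cl19 d0, and Cl19 d0 did not overlap 3c3 d0.

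Over the 24 rMAPC arrays the *Eomes* and *Lhx1* levels had a Pearson correlation of 0.97. *Mixl1* and *Gsc* had one of 0.94, and *Eomes* with *Gsc* one of 0.82. The 3 *Cited* genes were less alike, at 0.67 for *Cited2* and *Cited4*, 0.41 for *Cited1* and *Cited4* and 0.11 for *Cited1* and *Cited2*. The 24 points share line, day and slide, so these values describe the arrays and were given no p.

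**Figure D2:**
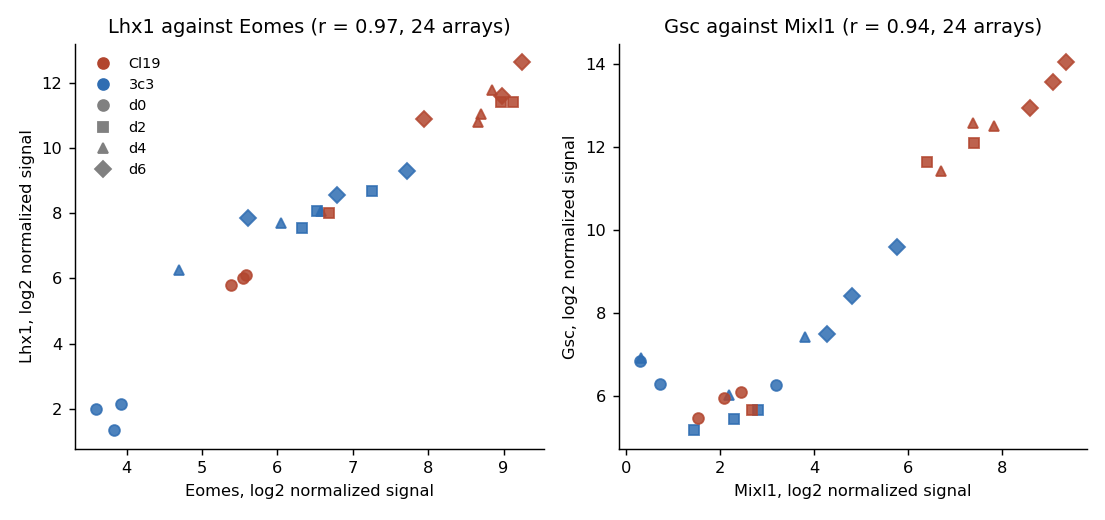
Left, *Lhx1* against *Eomes*, and right, *Gsc* against *Mixl1*, as log2 normalized signals on the 24 rMAPC arrays, coloured by line (Cl19 red, 3c3 blue) with a symbol for each day. The correlations were 0.97 and 0.94. The 3c3 arrays of d0 sit lowest on the left, and the Cl19 arrays of d6 highest on the right.

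*Mixl1* and *Gsc*, homeobox genes of the streak, rose in Cl19 from d2 on and later or not past the threshold in 3c3. Their upstream sequences are printed on the same terms, because these genes also moved together.
Mixl1 (GRCr8 chr13:94957939-94958188, minus strand): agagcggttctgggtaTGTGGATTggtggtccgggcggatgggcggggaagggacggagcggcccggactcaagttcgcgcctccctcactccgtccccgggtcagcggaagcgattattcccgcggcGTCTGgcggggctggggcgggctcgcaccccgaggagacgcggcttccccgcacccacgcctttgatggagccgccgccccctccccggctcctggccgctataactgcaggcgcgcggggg
Gsc (GRCr8 chr6:129154876-129155125, minus strand): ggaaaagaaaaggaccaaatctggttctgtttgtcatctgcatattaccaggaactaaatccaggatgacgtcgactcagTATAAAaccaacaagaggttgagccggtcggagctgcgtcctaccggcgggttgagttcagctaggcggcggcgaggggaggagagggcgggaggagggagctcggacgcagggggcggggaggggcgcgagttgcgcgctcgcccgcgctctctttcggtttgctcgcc
The *Mixl1* sequence holds a FOXH1 site on the reverse strand 234 bases before the start and a SMAD box on the reverse strand 122 bases before it. The *Gsc* sequence holds a TATA box 170 bases before the start and none of the other 6 motifs. Of the 9 genes, *Mixl1* and *Cer1* held the FOXH1 site, which 1.64% of all promoters hold. *Cited4*, *T* and *Mixl1* held the SMAD box (42.9% of all), *Cited1* and *Gsc* the TATA box (12.9%) and *Cer1* the LIM-homeodomain site (4.86%). None held the doubled SMAD box, the T-box half-site or the bicoid-type site. No test was run on these motifs.

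The *Gsc* probe, on chromosome 6 of rn4 between 128527461 and 128527520, was well above background on all 26 arrays. It read 6.08, 5.45 and 5.95 in Cl19 on d0, 5.65, 12.09 and 11.63 on d2, 11.40, 12.56 and 12.50 on d4 and 13.55, 12.94 and 14.03 on d6. In 3c3 it read 6.83, 6.28 and 6.26 on d0, 5.65, 5.16 and 5.44 on d2, 7.40, 6.02 and 6.91 on d4 and 9.58, 7.48 and 8.41 on d6. Every Cl19 array of d4 and d6 thus lay above every other *Gsc* reading apart from 2 of the Cl19 arrays of d2, whereas in 3c3 the d2 arrays lay below d0 and the d6 arrays above it. In Cl19 the change was 3.96 on d2 (SE 1.04, adjusted p = 0.0089) and 7.68 on d6 (SE 1.04, adjusted p = 4.3e-06). Without the array labelled Cl19 d2 replicate 1, the d2 change of *Gsc* was 6.04 (adjusted p = 6.2e-08), without replicate 2 it was 2.81 (adjusted p = 0.075) without replicate 3 it was 3.04 (adjusted p = 0.069) and with the Cl19 arrays alone in the fit 3.96 (adjusted p = 0.063). In 3c3 the *Gsc* changes were -1.04 on d2 (SE 1.04, adjusted p = 0.58) and 2.03 on d6 (SE 1.04, adjusted p = 0.12), and within slides the d6 difference was 1.2 to 2.75, higher on 3 of 3 slides. Fitted on the 3c3 arrays alone, the same d6 change passed (adjusted p = 0.0073). The main fit shares its spread between lines. Without the array labelled Cl19 d2 replicate 1, the SE of the *Gsc* d6 change in Cl19 was 0.45 in place of 1.04.

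The *Mixl1* probe, on chromosome 13 of rn4 between 96429270 and 96429329, gave no signal well above background on d0 in either line. In Cl19 it read 2.44, 1.53 and 2.08 on d0, 2.68, 7.40 and 6.40 on d2, 6.70, 7.37 and 7.82 on d4 and 9.08, 8.60 and 9.36 on d6, all from d2 on above background. In 3c3 it read 0.30, 0.72 and 3.20 on d0, 2.81, 1.44 and 2.29 on d2, 3.81, 2.19 and 0.32 on d4 and 5.77, 4.27 and 4.81 on d6, and was above background on 1 array of d2, 2 of d4 and all 3 of d6. In 3c3 the d0, d2 and d4 arrays overlapped, and d6 lay above them. *Mixl1* in Cl19 was at least 8.66-fold higher on d2 than on d0 (adjusted p = 0.015) and at least 99.4-fold higher on d6 (adjusted p = 7.3e-06). The d2 call was lost without Cl19 d0 replicate 2 (fitted change 3.23, adjusted p = 0.058) and without Cl19 d2 replicate 2 (2.52, adjusted p = 0.11) or replicate 3 (3.03, adjusted p = 0.076), and without replicate 1 the change was 4.88 (adjusted p = 3.4e-04). In 3c3 *Mixl1* was at least 4.80-fold higher on d6 (adjusted p = 0.0061), and its fitted change on d2 was 0.77 (SE 0.99, adjusted p = 0.68). Under the normexp background correction the d6 change of *Mixl1* in 3c3 was 0.60 (adjusted p = 0.089). The d6 call was also lost with the methods' t-test (adjusted p = 0.065). Its call over time in 3c3 was lost under normexp, with dim signals set to the lowest signal above background, and without d0 replicate 1, d6 replicate 1 or d6 replicate 3. For both genes Cl19 d6 stood highest with no overlap, and Cl19 d4, Cl19 d2 and 3c3 d6 followed, each overlapping the next. Below them *Gsc* in 3c3 d4 and d0 overlapped each other, as did Cl19 d0, 3c3 d2 and primary SMC, and for *Mixl1* the remaining 5 groups lay below 3c3 d6 and each overlapped the next.

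**Figure D3:**
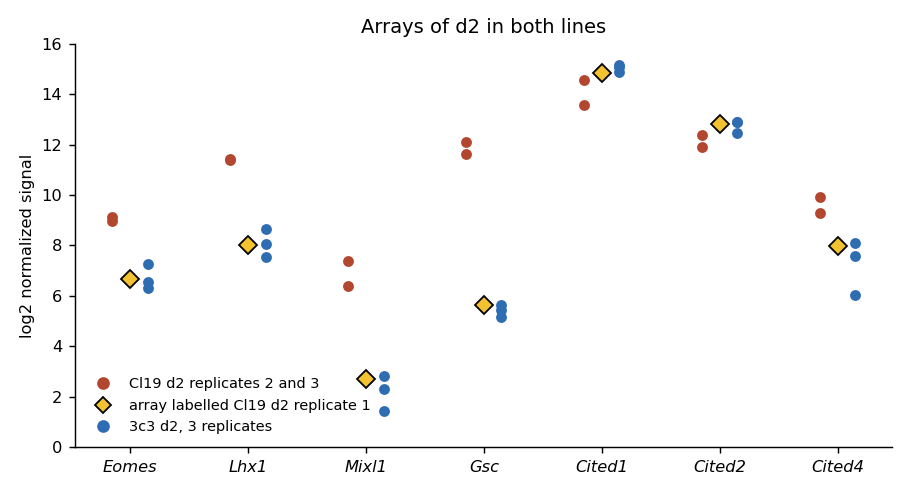
Log2 normalized signal of the 7 genes on the 6 arrays of d2. The array labelled Cl19 d2 replicate 1 (yellow diamond) is drawn apart from replicates 2 and 3 of Cl19 (red) and from the 3 arrays of 3c3 (blue). It read 5.65 for *Gsc*, where the other Cl19 arrays read 12.09 and 11.63 and those of 3c3 5.16 to 5.65.

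On d2 the array labelled Cl19 replicate 1 stood within the range of the 3c3 arrays of d2 for *Eomes*, *Lhx1*, *Mixl1*, *Gsc*, *Cited2* and *Cited4*. For *Cited1* it read 14.86, just under the lowest 3c3 array at 14.89 and above the other Cl19 arrays at 13.56 and 14.58. Without it the Cl19 means of d2 were 9.05 for *Eomes*, 11.41 for *Lhx1*, 6.90 for *Mixl1*, 11.86 for *Gsc*, 14.07 for *Cited1*, 12.14 for *Cited2* and 9.61 for *Cited4*. The limma change from d0 to d2 was then 3.40 for *Cited1* (adjusted p = 2.0e-07), 0.41 for *Cited2* (adjusted p = 0.58) and 6.99 for *Cited4* (adjusted p = 1.8e-07). The number of genes called on d2 in Cl19 stayed at 6 of 7. From d2 to d4 in Cl19 none of the 7 genes passed in limma, where 20.6% of tested probes changed, and 1, *Gsc*, had an unadjusted p under 0.05. The methods' t-test gave 0 with and without adjustment. Without the array labelled Cl19 d2 replicate 1, the step of *Gsc* went from 2.36 to 0.29, that of *Lhx1* from 0.91 to -0.22 and that of *Eomes* from 0.48 to -0.31 (adjusted p = 0.82 to 0.90). Without Cl19 d2 replicate 2, *Cited1* and *Gsc* passed this step, without d2 replicate 3 *Gsc* did, and without d4 replicate 2 *Cited2* did.

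*Cited1*, a coactivator that has been described with SMAD4, rose early and then fell. Its probe on chromosome X of rn4, between 90301155 and 90301214, read 10.32, 10.80 and 10.89 in Cl19 on d0, 14.86, 13.56 and 14.58 on d2, 14.16, 13.80 and 13.45 on d4 and 12.00, 12.20 and 12.50 on d6. In 3c3 it read 11.54, 11.99 and 11.97 on d0, 15.17, 14.89 and 15.07 on d2, 12.70, 12.61 and 12.19 on d4 and 11.55, 11.14 and 11.14 on d6. The d2 arrays were the highest in 3c3 with no overlap, while d2 and d4 overlapped in Cl19. On d6, 1 of the 3c3 arrays lay at the lower end of the d0 range and the other 2 below all of d0. The rise on d2 was 3.66 in Cl19 (SE 0.30, adjusted p = 5.3e-08) and 3.21 in 3c3 (SE 0.30, adjusted p = 2.8e-07). From d2 to d4 *Cited1* fell by 2.54 in 3c3 (adjusted p = 7.3e-05) and its change in Cl19 was -0.53 (adjusted p = 0.24). From d4 to d6 it fell by 1.57 in Cl19 (adjusted p = 0.0031) and by 1.22 in 3c3 (adjusted p = 0.013). The last call was lost without 3c3 d4 replicate 2 (-1.17, adjusted p = 0.052) or d6 replicate 2 (-1.16, adjusted p = 0.054) and without all 4 arrays of 3c3 replicate 3 (-1.31, adjusted p = 0.084). On d6 *Cited1* was 1.57 above d0 in Cl19 (adjusted p = 2.0e-04) and -0.56 from it in 3c3 (SE 0.30, adjusted p = 0.14), a value that passed with 75th percentile scaling (-0.82, adjusted p = 0.043) and with the 3c3 arrays alone in the fit (-0.56, adjusted p = 0.039).

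*Cited2*, whose protein competes with HIF1A for EP300, changed less in Cl19 than in 3c3. It has 3 probes, and the brightest, on chromosome 1 of rn4 between 12722880 and 12722939, read 11.87, 11.60 and 11.72 in Cl19 on d0, 12.82, 11.90 and 12.39 on d2, 14.04, 12.17 and 13.20 on d4 and 12.29, 12.84 and 11.66 on d6. In 3c3 it read 11.22, 11.51 and 11.59 on d0, 12.47, 12.92 and 12.91 on d2, 13.69, 14.60 and 14.25 on d4 and 13.40, 14.64 and 14.00 on d6. The 3c3 days separated from d0 to d2 to d4 with no overlap and d4 overlapped d6, while the Cl19 arrays of d6 overlapped those of d0. In 3c3 *Cited2* rose by 1.33 on d2 (SE 0.40, adjusted p = 0.023), by 1.41 from d2 to d4 (adjusted p = 0.033) and by 2.57 in all on d6 (adjusted p = 2.6e-05). In Cl19 it changed over time (adjusted p = 0.034), with 0.64 on d2 (adjusted p = 0.29) and 0.53 on d6 (SE 0.40, adjusted p = 0.28). The d2 call was lost without d0 replicate 1, d2 replicate 2 or d2 replicate 3 (changes 1.22 to 1.255, adjusted p = 0.072 to 0.086), and the call from d2 to d4 without d2 replicate 1, 2 or 3 or d4 replicate 2 or 3 (1.2 to 1.49, adjusted p = 0.068 to 0.13). With the mean over its probes the d2 rise in 3c3 was 0.80 (adjusted p = 0.24). The call from d2 to d4 was also lost with 75th percentile scaling (1.25, adjusted p = 0.050), with no filter, with the mean over probes and with the methods' t-test. The call over time in Cl19 was lost without each of its d0 arrays in turn, without d4 replicate 1 or 3, with 75th percentile scaling, with no filter, with the mean over probes and with the Cl19 arrays alone. The second probe gave 0.02 in Cl19 and 2.07 in 3c3 on d6 (adjusted p = 0.98 and 9.0e-04), and the third, well above background on 14 arrays, gave -0.33 and 1.36 (adjusted p = 0.68 and 0.064).

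*Cited4*, a coactivator of TFAP2 factors, rose from near background in both lines. Its probe, on chromosome 5 of rn4 between 141259221 and 141259280, read 3.07, 2.24 and 2.54 in Cl19 on d0 (above background on 2 of 3 arrays), 7.98, 9.29 and 9.93 on d2, 8.71, 9.23 and 8.44 on d4 and 9.60, 8.84 and 9.74 on d6. In 3c3 it read 2.94, 2.58 and 2.80 on d0 (above background on 1 of 3), 6.04, 7.59 and 8.08 on d2, 10.53, 11.96 and 11.61 on d4 and 6.48, 8.39 and 9.24 on d6. Cl19 held a level reached on d2, and 3c3 stood apart on d4, where its 3 arrays were the highest *Cited4* readings of all 26. The fitted change on d2 was 6.45 in Cl19 (SE 0.61, adjusted p = 3.1e-07) and 4.46 in 3c3 (SE 0.61, adjusted p = 2.9e-05). In 3c3 *Cited4* then rose by 4.13 to d4 (adjusted p = 5.6e-04) and fell by 3.33 to d6 (adjusted p = 0.0021). Within slides these steps of *Cited4* were 3.53 to 4.49 up and -2.37 to -4.05 down. On d6 it was 6.78 above d0 in Cl19 (adjusted p = 2.5e-08) and 5.26 above in 3c3 (adjusted p = 1.1e-06).

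In 3c3, then, 3 of the 7 genes changed from d2 to d4, all of them *Cited* genes, where 8.71% of tested probes changed. From d4 to d6, *Cited1* and *Cited4* changed in 3c3, 2 of 7 where 10.5% did, and *Cited1* in Cl19, 1 of 7 where 6.95% did. The 3c3 step from d2 to d4 held *Cited4* and *Cited1* in each fit that left out an array of 3c3. With the methods' t-test none of the 7 genes passed from d2 to d4 or from d4 to d6 in either line, and at an unadjusted p under 0.05 it gave 0 and 2 in Cl19 and 4 and 2 in 3c3.

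Whether a gene changed by a different amount in the 2 lines was tested as the difference between their changes. On d6 it passed for *Cited1*, *Cited2* and *Gsc*, 3 of 7, where 17.4% of tested probes differed. *Gsc* rose by 5.64 more in Cl19 (SE 1.47, adjusted p = 0.011) and *Cited1* by 2.12 more (SE 0.42, adjusted p = 0.0013). *Cited2* differed the other way, by -2.05 (SE 0.56, adjusted p = 0.014). Without the array labelled Cl19 d2 replicate 1 these 3 calls held, and the *Gsc* difference was 5.64 (SE 0.64, adjusted p = 4.6e-06). Without the 4 arrays of 3c3 replicate 3, whose slide had fewer features above background than the other 3c3 slides, *Gsc* differed by 5.70 (adjusted p = 0.059) and *Cited2* by -2.13 (adjusted p = 0.062). The difference for *Mixl1* was 3.46 (SE 1.40, adjusted p = 0.10) and passed without the array labelled Cl19 d2 replicate 1 (adjusted p = 0.033), with dim signals set to the lowest signal above background (4.37, adjusted p = 0.0074) and under normexp (2.54, adjusted p = 1.2e-04). For *Eomes* the difference was 0.30 (SE 0.86), for *Lhx1* -1.02 (SE 1.07) and for *Cited4* 1.51 (SE 0.87), with adjusted p = 0.91, 0.64 and 0.28, and a p that misses the threshold does not show that the lines changed alike. For *Lhx1*, whose 3c3 readings on d0 were at background, the sign turned under normexp (1.98). On d2 none of the 7 passed in limma, where 0.323% of tested probes did, and 2, *Cited4* and *Gsc*, had an unadjusted p under 0.05. The d2 difference for *Gsc* was 5.0 (SE 1.47, adjusted p = 0.21), and 7.07 (adjusted p = 2.1e-05) without the array labelled Cl19 d2 replicate 1.

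**Figure D4:**
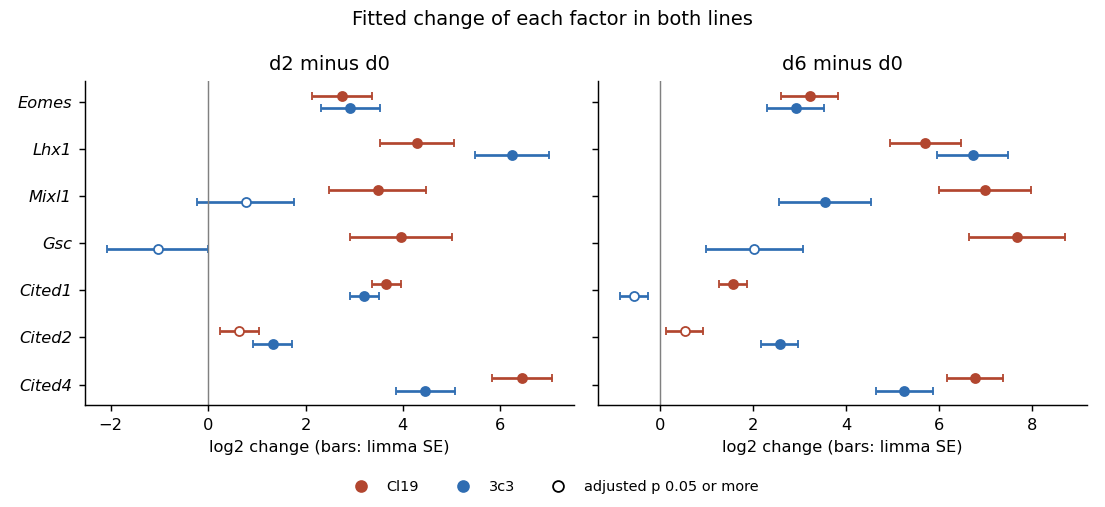
Log2 change from d0 to d2 (left) and to d6 (right) of the 7 genes in Cl19 (red) and 3c3 (blue), with bars of 1 limma standard error, and open symbols where the adjusted p was 0.05 or more. On d6 *Gsc* stood at 7.68 in Cl19 and 2.03 in 3c3, *Cited1* at 1.57 and -0.56, and *Cited2* at 0.53 and 2.57.

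Primary SMC carried little signal for these genes, apart from *Cited2*. The 2 arrays read 1.94 and 0.47 for *Eomes*, 0.41 and 2.73 for *Lhx1* and 2.35 and 4.03 for *Mixl1*, none of them well above background. *Cited1* read 3.17 and 4.15, above background on 1 array. *Gsc* read 5.09 and 5.57, overlapping the 3c3 arrays of d2, and *Cited4* 5.38 and 5.02, between d0 and the later days of both lines. *Cited2* read 12.01 and 11.89, above all d0 arrays and within the range of Cl19 on d6. Against d6, 6 of 7 genes were lower in primary SMC than in Cl19, where 38.6% of tested probes were lower, and 6 of 7 were lower than in 3c3, where 38.1% were. *Eomes*, *Lhx1*, *Mixl1* and *Cited1* entered the test only through rMAPC groups in which they were well above background. These counts therefore describe the genes and support nothing more. With the methods' t-test 4 of 7 passed against 3c3, *Cited4* (adjusted p = 0.11) and *Gsc* (adjusted p = 0.053) not among them. *Eomes* was at least 27.4-fold lower than in Cl19 and 6.78-fold lower than in 3c3 (adjusted p = 6.5e-09 and 5.2e-07), and *Lhx1* at least 214-fold and 24.4-fold lower (adjusted p = 2.1e-09 and 4.0e-07). *Mixl1* was at least 32.0-fold lower than in Cl19 (adjusted p = 1.1e-04), and its fitted difference from 3c3 was -1.76 (SE 1.11, adjusted p = 0.16). *Cited1* was lower by a fitted -8.57 and -7.61 (adjusted p = 2.0e-14 and 1.2e-13), *Cited4* by -4.19 and -2.84 (adjusted p = 1.9e-05 and 0.0011), and *Gsc* by -8.17 and -3.16 (adjusted p = 3.6e-06 and 0.021). The *Gsc* difference from 3c3 lost its call without 3c3 d6 replicate 1 (-2.61, adjusted p = 0.077) or either primary SMC array (-2.92 and -3.40, adjusted p = 0.099 and 0.057) and under the normexp background correction (-1.95, adjusted p = 0.061).

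*Cited2* in primary SMC differed by -2.06 from 3c3 on d6 (SE 0.44, adjusted p = 3.4e-04) and by -0.31 from Cl19 (SE 0.44, adjusted p = 0.54), the latter with the sign turned under 75th percentile scaling (0.18) and with the mean over its probes (0.29). The primary SMC arrays were dimmer before normalization. The median difference of all tested probes from Cl19 on d6 was -0.13 after quantile normalization, 0.206 after 75th percentile scaling and -2.166 in the authors' unscaled table, where 8.3% of calls were higher in primary SMC against 45.9% here. From 3c3 on d6 it was -0.126, 0.206 and -2.091, with 9.5% against 46.7%. Relative to those medians, *Cited2* differed from Cl19 by -0.18, -0.03 and -0.03, and the other 6 genes were below the median in each scaling.

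For each gene that changed over time in both lines, the 3 named genes with the most similar levels over the 24 rMAPC arrays were sought among 10442. For *Eomes* they were *Myo7a*, an unconventional myosin, *Sfrp5*, a secreted WNT inhibitor, and *Lhx1* (r = 0.976, 0.972 and 0.969). For *Lhx1* they were *Sfrp5*, *Vil1*, the actin bundler villin, and *Amot*, angiomotin (r = 0.993, 0.977 and 0.974). *Sfrp5* went from 7.84 on d0 to 14.14 on d6 in Cl19 and from 3.06 to 10.96 in 3c3. *Cited1* was most like *Cldn2*, a claudin of tight junctions, *Rgs10* and *Cpm* (r = 0.939, 0.859 and 0.847), and *Cldn2* stood at 0.51, 6.12, 5.6 and 1.19 over the days in Cl19 and at 0.67, 6.44, 1.75 and 1.13 in 3c3, so it too was high early and low on d6. *Cited2* was most like *Krt19*, a keratin, *Slc17a5* and *Fndc3b* (r = 0.964, 0.959 and 0.941). *Cited4* was most like *Adm*, which encodes the vessel-relaxing peptide adrenomedullin, *Ccng2* and *Hgs* (r = 0.924, 0.918 and 0.917). *Mixl1* was most like *Dpysl5*, *Bdnf* and *Tph1* (r = 0.974, 0.967 and 0.966). These are the highest of many values over arrays that share line, day and slide, and no p was computed.

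Of 17 genes of NODAL and SMAD2/3 signalling, 11 were tested on the arrays. By d6, 8 of them had risen in Cl19 and 5 in 3c3, 1 had fallen in each line, and the median changes were 1.65 and 0.82. Of all 20599 gene names tested, 22.3% rose in Cl19 and 20.0% in 3c3, 30.1% and 28.4% fell, and the medians were -0.19 and -0.20. *Lefty2*, a secreted inhibitor of NODAL, went from 3.40 ± 0.45 to 15.83 ± 0.58 in Cl19 and from 4.16 ± 0.08 to 12.08 ± 1.11 in 3c3 (SD, n = 3), changes of 12.43 and 7.92 (adjusted p = 7.9e-08 and 2.9e-05). *Nodal* itself rose by 5.80 and 4.23 (adjusted p = 1.0e-09 and 1.0e-07) and *Foxh1* by 5.62 and 2.46 (adjusted p = 6.2e-09 and 1.9e-04). *Lefty2*, *Nodal* and *Foxh1* were not well above background in primary SMC. *Smad2*, which carries the signal, fell by 1.1 and by 0.89 (adjusted p = 0.0033 and 0.016).

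**Figure D5:**
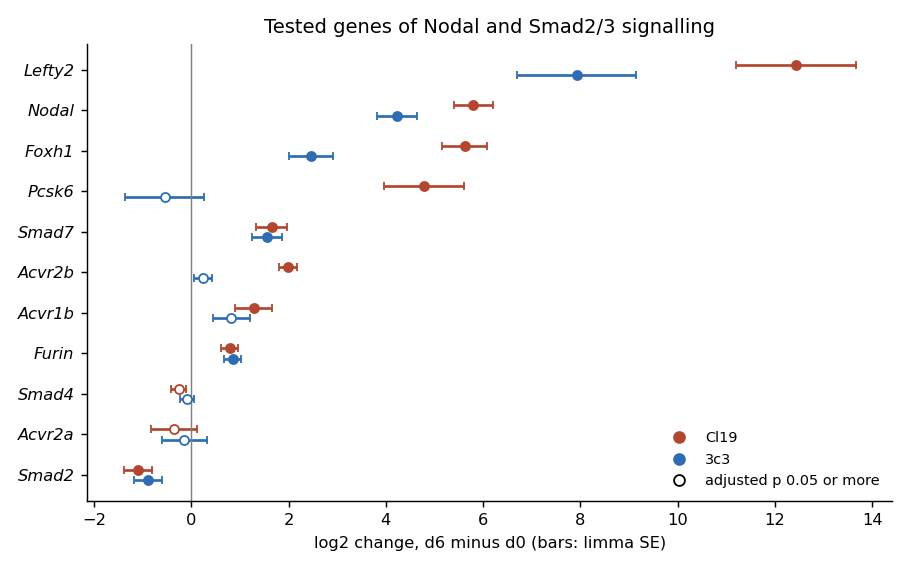
Log2 change from d0 to d6 of the 11 tested genes of NODAL and SMAD2/3 signalling in Cl19 (red) and 3c3 (blue), with bars of 1 limma standard error and open symbols where the adjusted p was 0.05 or more. *Lefty2*, *Nodal* and *Foxh1* rose in both lines, and *Smad2* fell in both.

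Of 28 other genes of the primitive streak and mesendoderm, 19 were tested. By d6, 10 had risen in Cl19 and 8 in 3c3, 5 had fallen in each line, with median changes of 0.66 and 0.50. In both lines 8 of 19 rose, where 13.5% of all gene names tested did, and 3 fell, where 20.3% did. Among genes called in both lines the 3 largest rises were those of *Cxcr4*, a chemokine receptor of definitive endoderm (8.53 in Cl19 and 4.95 in 3c3), *Otx2*, a head homeobox gene (7.67 and 5.0), and *Fgf8*, a growth factor of the streak (6.16 and 5.87). *Cxcr4* was above background on 1 of 3 d0 arrays of Cl19 and 2 of 3 of 3c3. The 3 largest falls were those of *Sox17* (-4.12 and -1.84) and *Gata6* (-3.31 and -1.47), factors of endoderm, and of *Pdgfra*, a receptor for PDGF (-1.93 and -1.77). Of the list, 7 genes were not above background on every array of any group, among them *Mesp1*, *Tbx6* and *Msgn1*, which act in early mesoderm, and *Evx1* and *Foxf1* had no probe.

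Of 12 genes for partners of CITED and LHX1 proteins, 10 were tested, of which 3 rose and 1 fell in both lines, and 2 more fell in 3c3. Of all gene names tested, 13.5% rose and 20.3% fell in both lines. *Otx2*, *Ldb1*, the LIM-domain binding cofactor of LHX1 (1.66 in Cl19 and 2.03 in 3c3), and *Ssbp3* (1.74 and 0.82) rose, and *Hif1a*, the competitor of CITED2 for EP300, fell by 1.23 and by 1.22. *Crebbp* and *Ep300* did not pass in either line, with changes between -0.36 and 0.17. Of 15 other T-box genes, 5 were tested, and *Tbx3* fell in both lines (-4.30 and -1.75). Of 11 other LIM-homeobox genes, 7 were tested, and *Lhx4* fell in both, from signals above background on all d0 arrays to none on d6 in Cl19, where it was at least 2.7-fold lower, and to 1 in 3c3 (-2.29). Of the 5 T-box genes, 1 rose and 2 fell in Cl19 and 2 fell in 3c3, and of the 7 LIM-homeobox genes 3 rose and 1 fell in Cl19 and 1 fell in 3c3. In 3c3 limma called 0 rises in either list, and at an unadjusted p under 0.05 there were 0 and 1. Of all gene names tested, 22.3% rose and 30.1% fell in Cl19, and 20% rose and 28.4% fell in 3c3. The 1 T-box rise of 5 in Cl19 lies near that share. The falls in both lines, 1 of 5 and 1 of 7, stand beside 20.3% of all gene names and describe only those genes.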

How the data were processed

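Total RNA of 24 rMAPC samples (2 clones, 4 days, 3 replicates) and 2 primary SMC samples was labelled with Cy3 and hybridised to 26 single-colour Agilent rat arrays on 7 slides. The deposited scanner files, made by the authors with Agilent Feature Extraction 10.1.1.1, hold the processed signal, an intensity with background already subtracted, together with the probe names and rn4 positions of the array annotation. The deposited series table holds the log2 of that same intensity, within 5.2e-14 for each of 43379 gene features, with no scaling between arrays, and served as an alternative. No reads lie behind the values, and the number of arrays limits the precision.

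Intensities were log2 transformed and quantile-normalized over the gene features of all arrays, as the study's methods name quantile normalization. Outlier features were left out, features of a probe were averaged to 41012 probes, and limma 3.58.1 (R 4.3.3) was fitted to the 24442 probes that every array of some group, of 9, measured well above background, with group as the only term and one estimate of spread over all arrays. P-values were adjusted by Benjamini-Hochberg over all tested probes, with a threshold of 0.05. The methods' selection of genes over the time course, which resamples replicate differences, was not repeated. The limma steps were checked on simulated data.

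Where a probe was well above background on none of a group's arrays, a fold is a bound, the mean of the brighter group over the mean, in the other, of the probe's own signal or the array's lowest one well above background, whichever was higher. Levels of different probes were not set against each other. A gene was named where it belonged to the 9, was among the 3 most similar in level to 1 of them, or had among the 3 largest rises or falls of a list in both lines. *Crebbp*, *Ep300*, the single cell type markers and the genes named as without signal or probe were added after their values were seen. The genes and lists were chosen with earlier results of these data known. Alternatives were 75th percentile scaling, normexp background correction with an offset of 50, the authors' table, no filter, a floor on dim signals, the mean over a gene's probes, each array or 3c3 replicate 3 left out, the replicate as a block, single-line fits and the methods' t-test. Unless a p is called unadjusted, this t-test was adjusted in the same way as limma, although the methods name no adjustment. Promoters came from RefSeq's table for GRCr8, and all 9 genes had an entry.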

Additional observations from a re-analysis of the deposited data

Results flagged for a closer look

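For 3 genes the change from d0 to d6 was not the same in Cl19 and 3c3 when limma tested one change against the other. For *Gsc* the Cl19 change was larger by 5.64 (adjusted p = 0.011), and on each of the 3 Cl19 slides it exceeded that of each 3c3 slide. For *Cited1* it was larger by 2.12 (adjusted p = 0.0013). For *Cited2* the difference was -2.05 (adjusted p = 0.014). The *Gsc* and *Cited2* calls were lost without the arrays of 3c3 replicate 3, and the *Cited1* call held in each of the 33 alternatives run. Without the array labelled Cl19 d2 replicate 1, the *Gsc* difference kept its size with a lower limma p (adjusted p = 4.6e-06).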

How the results depend on the processing

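Of 1346 values of single genes under an alternative, 1288 kept their direction and their side of the threshold, 44 lost the threshold, 9 gained it and 5 changed sign. With the same adjustment, the methods' t-test left 2 of 7 genes called on d2 in Cl19 and 0 from d4 to d6 in Cl19, 0 from d2 to d4 in 3c3 and 0 from d4 to d6 in 3c3. Normexp background correction gave 2 genes from d4 to d6 in Cl19, *Mixl1* being added. Leaving out 1 array or 3c3 replicate 3 gave 0 to 2 genes from d2 to d4 in Cl19, 1 to 2 from d4 to d6 in Cl19, 1 to 3 from d4 to d6 in 3c3, 1 to 4 for the difference between lines on d6 and 0 to 1 for that on d2. The 1 gene on d6 was left without 3c3 replicate 3, and the 1 on d2, *Gsc*, was gained without the array labelled Cl19 d2 replicate 1. The cause of these moves was not tested. Values that changed sign, none past the threshold, were *Cited2* in primary SMC against Cl19 d6 (0.18 with 75th percentile scaling and 0.29 with the mean over probes), the *Eomes* difference between lines on d6 (-0.25 to 0.80 over the left-out arrays, negative without 3c3 d6 replicate 2), that of *Lhx1* (1.98 with normexp) and *Mixl1* on d2 in 3c3 (-0.016 with the floor). Arrays of a slide share a replicate number. Deviations from the group means correlated above 0.1 in 16 of 18 pairs of arrays on the same slide in Cl19 (lowest 0.06) and 18 of 18 in 3c3 (lowest 0.20). With the replicate block as a fixed term 7 and 6 genes changed over time in Cl19 and 3c3 and no call of the 7 genes changed. As a random block, at a correlation of 0.309, it added *Gsc* over time in 3c3 (7 genes) and *Mixl1* from d4 to d6 in 3c3 (3 genes). On dim arrays signals near background limit what can be measured, which touches *Mixl1*, *Lhx1* and *Cited4* on d0 and 4 of the 7 genes in primary SMC.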
